A study of Mus musculus with 4 samples.

Results

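The genes described here are those of the Wnt pathway other than the Wnt ligands themselves: the receptors, the enzymes of ligand secretion, the cytoplasmic transducers, the Tcf/Lef factors, the antagonists, the R-spondin axis and the feedback targets. They were chosen by name from a list of 55 genes, 53 of which were found under that symbol among the 22718 genes measured. The remaining 2, *Tcf7l1* and *Wls*, were found by Ensembl identifier under the older symbols *Tcf3* and *Gpr177*, and they are given apart from the counts.

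The study asked what the homeodomain factor Prep1, encoded by *Pknox1*, binds and regulates in mouse embryonic stem (ES) cells. RNA-seq was made from 1 wild type library (WT below) and 1 library labelled Prep1-/- (KO below), and Prep1 ChIP-seq from wild type ES cells gave 1 peak list. The labels give strain C57BL/6 for all samples. The methods state that the RNA came from ES lines derived in the laboratory and grown on gelatin with serum and leukemia inhibitory factor (LIF), that the Prep1-/- cells were the single line KO2, and that R1 ES cells were used for the ChIP.

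In canonical Wnt signalling, a Wnt ligand binds a Frizzled receptor together with Lrp5 or Lrp6, Dishevelled is recruited, and the destruction complex of Axin, Apc, Gsk3 and casein kinase 1 no longer marks beta-catenin for degradation. Beta-catenin then enters the nucleus and acts with Tcf/Lef factors on target genes, several of which encode inhibitors of the same pathway. In ES cells this signalling is known for its part in self-renewal and, on differentiation, in forming the primitive streak and mesoderm.

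The read counts summed to 29596294 in the WT library and 25717811 in the library labelled KO. The methods state fewer reads per sample than these sums, and the reason is not known here. If the counts exceed the number of independent reads, all counting intervals below are too narrow. *Pknox1* had 505 reads (7.85 RPKM, a read count scaled to gene length and library size) and 332 reads (5.78 RPKM), a KO/WT ratio of 0.736 with a 95% interval of 0.638 to 0.846. RNA reads do not show whether protein was made. The study reports that Prep1 protein was lost in this line by immunoblot, which was not analysed here. Each direction below rests on the labels. The chromosome Y genes had 0 reads in the WT library and 991 in the other, and genes of chromosome 8 had a median ratio of 0.779, so differences between the lines other than *Prep1* cannot be told apart from the genotype. All 10 ES cell markers were above 1 RPKM in both libraries, with summed levels of 1984 and 2284 RPKM. Their ratios ran from 0.801 (*Zfp42*) to 1.58 (*Klf4*), and *Klf4* alone was called higher by the rule given below. With 1 library per genotype there is no replicate check and no p-value is given. The 95% intervals are exact (Clopper-Pearson) intervals of the share of a gene's reads, they compare the 2 libraries, and they cover counting error only. Fewer cells of a type and less RNA per cell cannot be told apart in such bulk samples.

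Among the 53 genes, 42 had an RPKM above 1 in at least 1 library. Of these 42, 9 were called lower in the library labelled KO (21.4%), where a call meant a KO/WT ratio below 0.7 and a wild type RPKM above 1. Over all 14254 genes that passed this level in at least 1 library, 13.3% were called lower. A further 4 of the 42 were called higher (9.52%, against 6.91% of all genes), with a ratio above 1.5 and a KO RPKM above 1. The genes called lower were the receptors *Fzd2*, *Fzd6* and *Fzd10*, the feedback inhibitors *Axin2*, *Nkd1*, *Nkd2* and *Rnf43*, the Dkk co-receptor *Kremen2* and the target gene *Sp5*. The genes called higher were the receptor *Fzd5*, the transcription factor *Tcf7l2* and the secreted antagonists *Sfrp1* and *Notum*.

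The median of the genes was not displaced. Over the 40 genes that exceeded 1 RPKM in each library, the log2 KO/WT ratio had a median of -0.07, the same as for the 13218 such genes in all. Of the 40, 24 had a ratio below 1 (60.0%, against 58.8% of all genes). The counting interval lay below 1 for 18 of the 40, where 36.8% of all genes did so, and above 1 for 9 of the 40, where 20.8% of all genes did so. At these depths an interval on 1 side of 1 was therefore common, and the size of a ratio tells more than its interval.

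**Figure D1:**
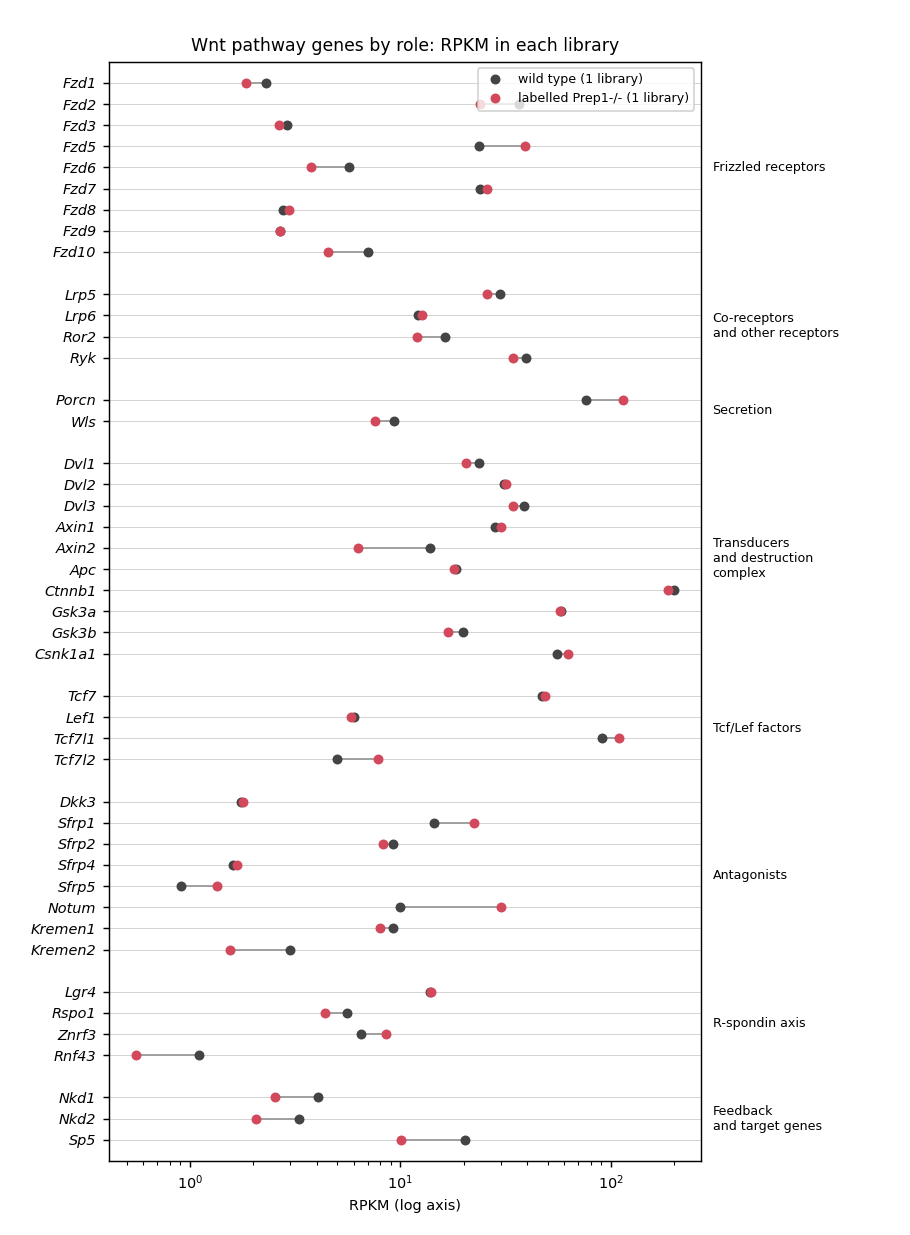
RPKM on a log axis of the Wnt pathway genes with more than 1 RPKM in either library, grouped by role, with 1 point per library (grey, WT; red, labelled KO) and a line joining the 2. *Ctnnb1* has the highest level in both libraries (199 and 186 RPKM), and the longest lines belong to *Notum* (9.99 and 30.0 RPKM) and *Axin2* (13.8 and 6.32 RPKM).

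**Figure D2:**
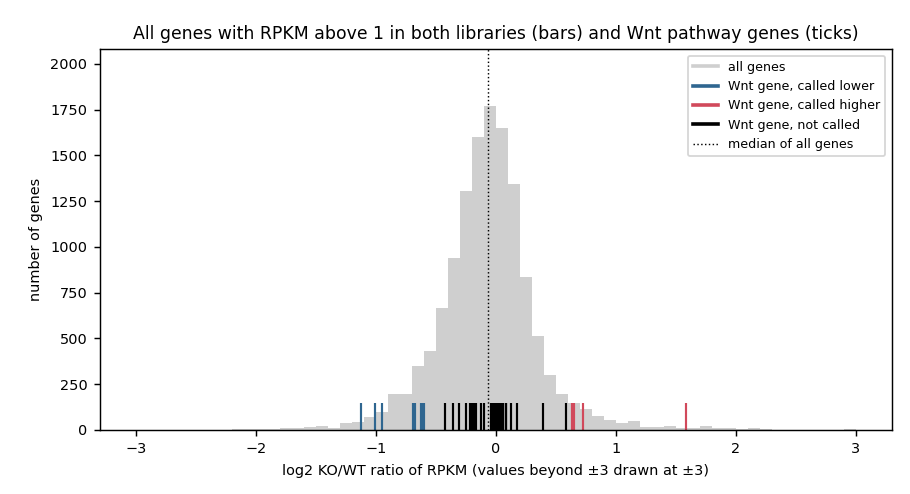
Histogram of the log2 KO/WT ratio of the 13218 genes above 1 RPKM in both libraries, with ticks for the 40 Wnt pathway genes among them (blue, called lower; red, called higher; black, not called) and a dotted line at the median of all genes, -0.07. The ticks spread to both sides of the median, from -1.13 (*Axin2*) to 1.59 (*Notum*).

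The Frizzled genes encode the 7-pass receptors that bind Wnt proteins, and 9 of the 10 were above 1 RPKM in both libraries. *Fzd2* (chr11:102465745-102469372, plus strand, mm9) had 2466 reads, or 36.7 RPKM, in the WT library and 1437 reads, or 23.9 RPKM, in that labelled KO. Its KO/WT ratio was 0.652 (95% interval 0.610 to 0.696). *Fzd2* was the most abundant Frizzled RNA per length in the WT library and came behind *Fzd5* and *Fzd7* in the other. *Fzd5* (chr1:64777134-64784324, minus strand) had 2261 and 3343 reads, which correspond to 23.6 and 39.0 RPKM and a ratio of 1.65 (1.57 to 1.74). *Fzd7*, a receptor known for its high expression in ES cells, had 23.8 and 25.9 RPKM (ratio 1.09, 1.05 to 1.13) and was not called.

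The less abundant Frizzled genes did not move together either. *Fzd10* had 7.0 RPKM in the WT library and 4.54 RPKM in the library labelled KO, a ratio of 0.648 (0.573 to 0.731). *Fzd6*, a receptor known from planar cell polarity, had 5.71 and 3.77 RPKM, a ratio of 0.661 (0.582 to 0.747). The call on *Fzd6* ended when ratios were taken relative to the median of each gene's chromosome (0.712) and with a pseudocount of 1 RPKM (0.711). *Fzd1*, *Fzd3*, *Fzd8* and *Fzd9* stood between 1.85 and 2.95 RPKM in either library with ratios from 0.810 to 1.06, and *Fzd4* stayed below 1 RPKM with 86 and 64 reads.

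Summed over the 10 genes, Frizzled RNA was 108 RPKM in both libraries (ratio 0.997), while its makeup differed. *Fzd2* made up 33.9% of the sum in the WT library and 22.2% in the other, and *Fzd5* made up 21.7% and 36.1%. The ratio of *Fzd5* to *Fzd2* RPKM within a library, which no scaling between libraries can change, was 0.642 in the WT library and 1.63 in the library labelled KO. The odds ratio of their reads was 2.54 (exact 95% interval 2.33 to 2.76). *Fzd5* and *Fzd2* were called in opposite directions, and the interval takes no account of the choice of this pair.

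**Figure D3:**
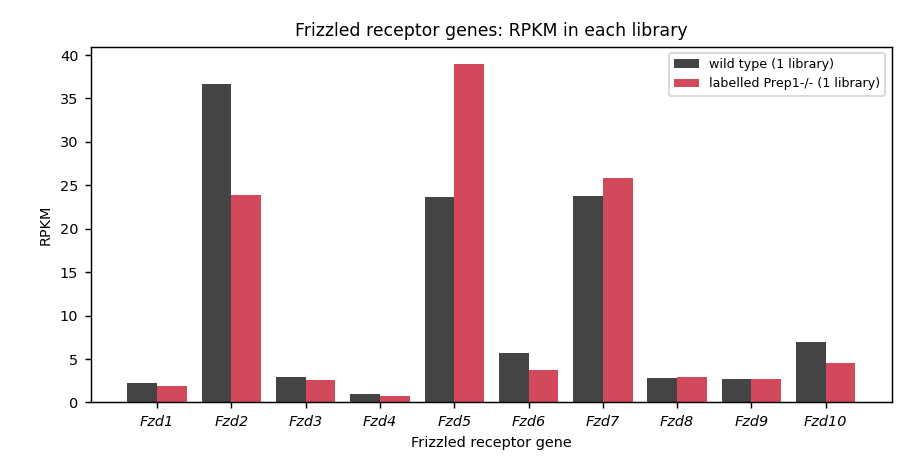
RPKM of the 10 Frizzled receptor genes on a linear axis from 0, with 1 bar per library (grey, WT; red, labelled KO) and no error bars because each genotype has 1 library. *Fzd2* is the tallest bar in the WT library (36.7 RPKM) and *Fzd5* in the library labelled KO (39.0 RPKM).

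None of the co-receptors and other receptors was called. *Lrp5* and *Lrp6*, the co-receptors of canonical signalling, had 29.7 and 12.1 RPKM in the WT library and 25.7 and 12.6 RPKM in the library labelled KO (ratios 0.868 and 1.04). *Ryk*, a Wnt receptor with an inactive kinase domain, had 39.5 and 34.2 RPKM. *Ror2*, a receptor tyrosine kinase that binds Wnt5a, had the lowest ratio of the group, with 16.2 and 12.0 RPKM (ratio 0.744, 0.691 to 0.799). Its relative *Ror1* was below 1 RPKM in both libraries, with 132 and 141 reads.

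The secretion genes differed in direction. *Porcn*, the acyltransferase that lipidates Wnt proteins so that they can be secreted, had 4351 reads (76.2 RPKM) in the WT library and 5826 reads (114 RPKM) in that labelled KO. Its ratio of 1.497 (1.44 to 1.56) lay just under the threshold of 1.5, and it was called higher with 2 other scalings of the libraries, at 1.54 and 1.57. *Porcn* lies on chromosome X, whose genes had a median ratio of 1.08, and relative to that median its ratio was 1.38. *Wls*, the carrier that brings lipidated Wnt to the cell surface, had 9.31 and 7.54 RPKM (ratio 0.810, 0.727 to 0.901).

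The core transducers were nearly level between the libraries, apart from *Axin2*. *Ctnnb1*, which encodes beta-catenin, had 17982 reads in the WT library and 15034 in the library labelled KO, or 199 and 186 RPKM (ratio 0.935, 0.915 to 0.955). The Dishevelled genes *Dvl1*, *Dvl2* and *Dvl3* summed to 93.3 and 86.3 RPKM. The scaffold genes *Apc* and *Axin1* had ratios of 0.986 and 1.06, and the kinases *Gsk3a*, *Gsk3b* and *Csnk1a1* had ratios of 0.98, 0.842 and 1.13. All 9 genes of this group other than *Axin2* had ratios between 0.842 and 1.13. Of the 9, 0 were called, against 13.3% of all genes called lower and 6.91% called higher. These are RNA levels, and beta-catenin is regulated mainly through the stability of its protein, which these files do not cover.

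*Axin2*, a scaffold of the destruction complex that is itself induced by beta-catenin and widely used as a readout of the pathway, had 2125 reads (13.8 RPKM) in the WT library and 870 reads (6.32 RPKM) in that labelled KO. The ratio of 0.458 (0.423 to 0.496) was the lowest of the 40 genes above 1 RPKM in both libraries. The paralog *Axin1*, which is not known as such a target, stood at 28.2 and 29.9 RPKM.

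Of the Tcf/Lef factors, which bind DNA and recruit beta-catenin, *Tcf7l2* alone was called. It had 3013 and 4228 reads, or 5.00 RPKM in the WT library and 7.84 RPKM in the library labelled KO, a ratio of 1.57 (1.5 to 1.64). With a pseudocount of 1 RPKM its ratio was 1.47 and the call ended. *Tcf7l1*, the factor known as a repressor in the ES cell network, was the most abundant of the family per length, with 91.1 and 109 RPKM (ratio 1.2, 1.16 to 1.24). *Tcf7* had 47.1 and 48.6 RPKM and *Lef1* 6.02 and 5.84 RPKM, with ratios of 1.03 and 0.970. Over the 4 factors *Tcf7l1* made up 61.0% of the summed RPKM in the WT library and 63.7% in the other, and *Tcf7l2* 3.35% and 4.57%.

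**Figure D4:**
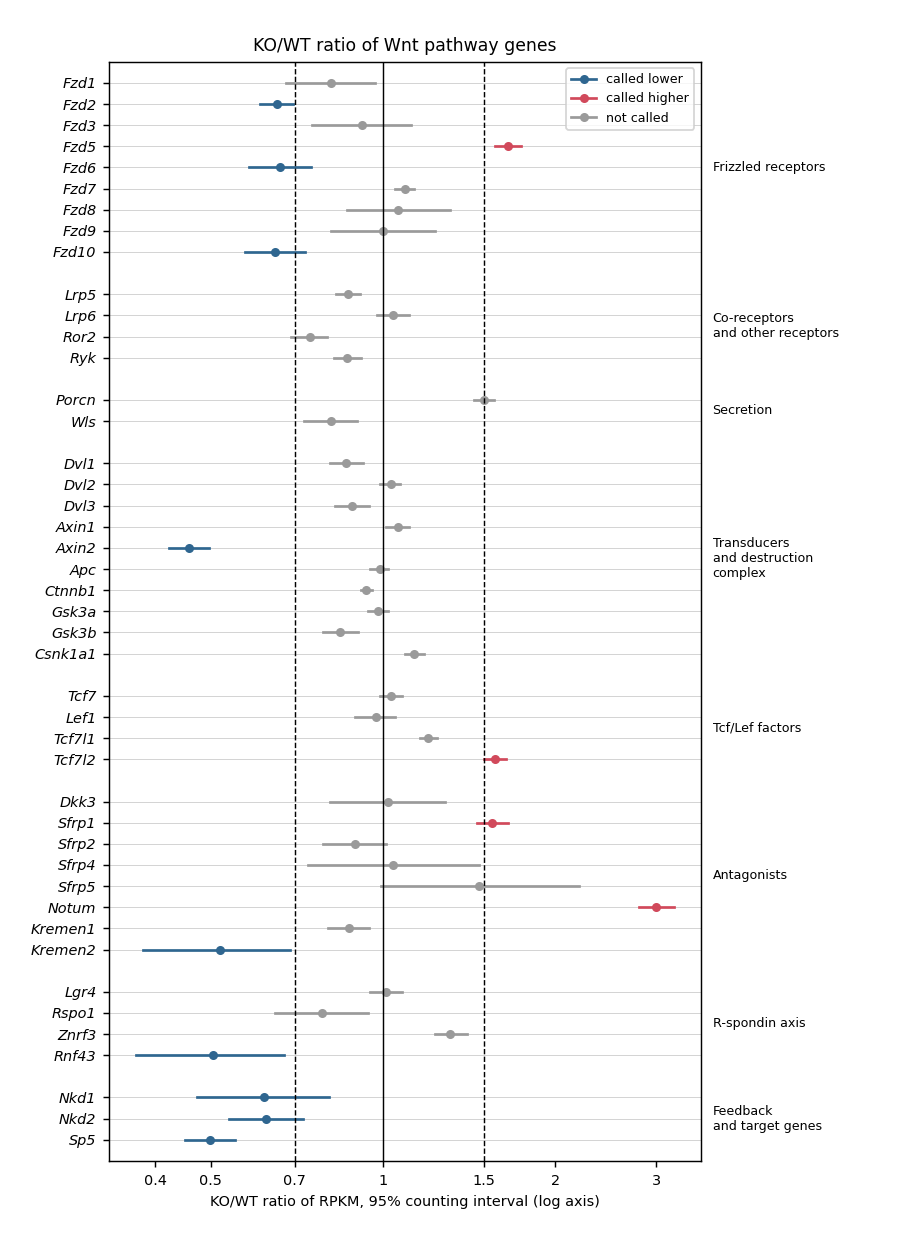
KO/WT ratio of RPKM on a log axis with its exact 95% counting interval for the Wnt pathway genes above 1 RPKM in either library, grouped by role (blue, called lower; red, called higher; grey, not called), with a solid line at 1 and dashed lines at the thresholds of 0.7 and 1.5. Most transducers lie close to 1, and the 3 genes grouped as feedback and target genes lie below 0.7. *Notum*, a known target drawn with the antagonists, stands alone at 3.0.

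The antagonists held the highest ratio of the 40 genes above 1 RPKM in both libraries. *Notum*, a secreted enzyme that removes the lipid from Wnt proteins and so inactivates them, had 1098 reads (9.99 RPKM) in the WT library and 2950 reads (30.0 RPKM) in that labelled KO. The ratio was 3.0 (2.80 to 3.22). *Sfrp1*, a secreted protein with a Frizzled-like domain that binds Wnt ligands, had 14.4 and 22.3 RPKM, a ratio of 1.55 (1.46 to 1.65). *Sfrp1* lies on chromosome 8, where the median gene was at 0.779, and relative to that median its ratio was 1.99.

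The other antagonists were level, lower or scarcely expressed. *Sfrp2* had 9.27 and 8.28 RPKM, *Sfrp4* had 1.6 and 1.67 RPKM, and *Dkk3* had 1.75 and 1.78 RPKM, with intervals that span 1. *Sfrp5* had 47 and 62 reads (0.910 and 1.34 RPKM), and its ratio of 1.47 passed 1.5 under each of 3 other scalings (1.51 to 1.56), with an interval from 0.993 to 2.20. The Dkk proteins block Lrp5 and Lrp6, and the Kremen proteins are their receptors at the cell surface. *Kremen2* had 150 reads in the WT library and 69 in the library labelled KO, or 2.99 and 1.55 RPKM (ratio 0.518, 0.381 to 0.688), while *Kremen1* had 9.21 and 8.02 RPKM (ratio 0.870, 0.801 to 0.944). *Dkk1* had only 19 and 8 reads, and *Dkk2*, *Dkk4*, *Frzb* and *Wif1* had between 0 and 5 reads in each library, too few for a ratio.

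In the R-spondin axis, secreted R-spondins bind Lgr receptors and thereby remove the ubiquitin ligases Znrf3 and Rnf43, which otherwise clear Frizzled from the cell surface. The ligases differed from each other. *Rnf43* had 152 and 68 reads, or 1.10 RPKM in the WT library and 0.555 RPKM in the library labelled KO (ratio 0.504, 0.370 to 0.670), and with a pseudocount of 1 RPKM its ratio was 0.740 and no longer called. *Znrf3* had 6.48 and 8.51 RPKM (ratio 1.31, 1.23 to 1.40). The odds ratio of *Rnf43* to *Znrf3* reads between the libraries was 0.381 (0.280 to 0.515). *Lgr4*, the main Lgr receptor here, had 13.8 and 13.9 RPKM, whereas *Lgr5* had 19 and 29 reads. *Rspo1* was the only R-spondin gene above 1 RPKM, with 5.60 and 4.38 RPKM (ratio 0.782, 0.646 to 0.942). *Rspo2* and *Rspo4* had from 3 to 13 reads, and *Rspo3* had 29 and 7 reads, an RPKM below 1 in both libraries.

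The 3 remaining genes, which are feedback regulators or targets, were all called lower. *Sp5*, a zinc finger factor that is a direct target of beta-catenin and Tcf, had 1280 reads (20.2 RPKM) in the WT library and 570 reads (10.1 RPKM) in that labelled KO, a ratio of 0.498 (0.450 to 0.550). *Nkd1* and *Nkd2* encode proteins that bind Dishevelled. *Nkd1* had 163 and 90 reads (4.08 and 2.53 RPKM, ratio 0.620, 0.472 to 0.803) and *Nkd2* had 500 and 279 reads (3.31 and 2.07 RPKM, ratio 0.625, 0.537 to 0.724). *Nkd1* lies on chromosome 8 and had a ratio of 0.797 relative to the median of that chromosome, which is not a call. With a pseudocount of 1 RPKM *Nkd2* had a ratio of 0.712 and its call ended.

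The known targets of beta-catenin and Tcf among the 53 genes thus did not share a direction. Of the 10 such genes, 8 were above 1 RPKM in either library. Of the 8, 50.0% were called lower and 12.5% higher, against 13.3% and 6.91% of all genes. *Axin2*, *Sp5*, *Nkd1* and *Rnf43* were called lower, *Notum* was called higher, and *Lef1*, *Tcf7* and *Znrf3* were not called, while *Dkk1* and *Lgr5* were too low to be called. The contrast is free of the scaling between libraries when genes are compared within a library. *Notum* had 0.724 times the RPKM of *Axin2* in the WT library and 4.75 times in the library labelled KO, an odds ratio of the reads of 6.56 (5.90 to 7.30). These genes had the highest and the lowest ratio of the 40 genes above 1 RPKM in both libraries. A large odds ratio thus follows from the choice of the pair, and the interval takes no account of that choice. The ratios of *Sp5* and *Axin2* were close to each other, with *Sp5* at 1.47 and 1.59 times the RPKM of *Axin2* (odds ratio 1.09, 0.956 to 1.24).

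The 200 bases before the annotated start of *Notum*, *Sp5* and *Axin2* are shown because the ratios of these 3 were the farthest from 1 among the known targets above 1 RPKM. They were read from mm9 (NCBIM37) along each gene's strand, with the Tcf core CTTTGA in capitals where it occurs on either strand. For *Notum* they are chr11:120522490-120522689 (minus strand), for *Sp5* chr2:70312780-70312979 (plus strand) and for *Axin2* chr11:108781463-108781662 (plus strand).
Notum: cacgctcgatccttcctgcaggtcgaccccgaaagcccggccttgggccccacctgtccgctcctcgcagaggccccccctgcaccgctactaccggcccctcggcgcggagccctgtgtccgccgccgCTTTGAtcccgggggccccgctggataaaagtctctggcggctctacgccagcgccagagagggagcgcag
Sp5: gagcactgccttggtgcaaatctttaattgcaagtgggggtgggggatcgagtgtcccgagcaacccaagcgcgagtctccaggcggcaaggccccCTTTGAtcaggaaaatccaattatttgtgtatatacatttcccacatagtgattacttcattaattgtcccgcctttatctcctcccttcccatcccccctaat
Axin2: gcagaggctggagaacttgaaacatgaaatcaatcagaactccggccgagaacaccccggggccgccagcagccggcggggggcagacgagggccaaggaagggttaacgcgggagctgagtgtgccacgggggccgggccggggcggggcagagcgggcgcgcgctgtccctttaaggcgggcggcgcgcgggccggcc

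Counted from the start, the core began at position -71 in *Notum*, which was higher, and at position -104 in *Sp5*, which was lower. It was not in the *Axin2* window. Over 22367 protein-coding genes 10.5% of such 200-base windows held the core, and 7 of the windows of the 55 genes did. The match is a description of these letters and says nothing of whether a factor is bound.

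Genes of other cell types also differed between the libraries. For comparison, 13.3% of all genes above 1 RPKM in at least 1 library were called lower and 6.91% higher. The marker counts below are out of all markers listed, also those too low to be called. In the WT library 4 streak, 4 endoderm, 4 trophectoderm, 3 feeder and 2 neural markers were above 1 RPKM. The 6 primitive streak and mesoderm markers summed to 31.0 RPKM in the WT library and 11.4 RPKM in the library labelled KO, with 3 of the 6 called lower (*T*, *Eomes* and *Mixl1*) and none at 0 reads. The 7 primitive or visceral endoderm markers summed to 12.1 and 6.10 RPKM, with 3 of the 7 called lower. The 5 trophectoderm markers, most of which are keratins, summed to 825 and 490 RPKM, with 4 of the 5 called lower. The 7 fibroblast feeder markers summed to 24.2 and 30.1 RPKM with 0 called, and *Lum*, 1 of the 7, had no read in the WT library. The 4 neural ectoderm markers summed to 24.6 and 18.6 RPKM, with 1 called lower and 1 higher. *T*, *Mixl1*, *Tbx6* and, from the trophectoderm list, *Cdx2* are counted as Wnt targets as well. The part of such cells in the ratios of *Axin2*, *Sp5* and the other genes was not tested.

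The rest of the pathway was read from a list of 82 further genes, of which 80 were found. The 19 Wnt ligands included 11 above 1 RPKM in either library, of which 10 were called lower (90.9%) and 0 higher. Over all genes 13.3% were called lower and 6.91% higher. Of the other 61 genes, 53 were above 1 RPKM in either library, with 11 of them called lower (20.8%) and 2 higher (3.77%). Their median ratio was 0.926, against 0.955 for all genes. The genes called lower were the streak and caudal targets *T*, *Mixl1*, *Cdx1*, *Cdx2* and *Cdx4* (ratios 0.221 to 0.552), the nuclear cofactors *Bcl9l*, *Pygo1* and *Tle2* (0.635 to 0.678), the planar polarity receptor *Ptk7* (0.663), the Frizzled-retaining inhibitor *Shisa3* (0.413) and the Frizzled cofactor *Tspan12* (0.477). The genes called higher were *Shisa2* (2.18), a relative of *Shisa3*, and the proteoglycan *Gpc3* (1.52). None of the 14 cytoplasmic regulators above 1 RPKM in this list was called.

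Prep1 acts on DNA in complexes with Pbx proteins. The deposited ChIP-seq list holds 3902 peaks with scores, which are rounded fold enrichments over input, from 4 to 336 (median 21.0). A peak was assigned to a gene when it overlapped the gene's span or lay within 20 kb of its start, so that 1 peak can belong to several genes. By this rule 11 of the 53 genes had a peak (20.8%, against 21.0% of all 21446 genes placed on mm9). Among genes above 1 RPKM in the WT library the shares were 24.4% and 26.4%. In 5 of the 53 (9.43%, against 7.60% of all genes) a peak lay over the start, from 500 bases before it to 100 after.

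The genes with a peak over the start were *Sfrp1* (score 33), *Kremen1* (30), *Lgr4* (25), *Fzd4* (22) and *Tcf7l2* (12). The *Fzd4* peak was centred 49 bases from the start of *Tmem135*, nearer than to that of *Fzd4*. Further peaks lay within the spans of *Tcf7* (scores 29 and 25), *Tcf7l2* (22), *Lgr4* (19 and 13) and *Ror2* (20 and 10). The *Ctnnb1* peak had a score of 66 and was centred 9.70 kb before the start. The *Rspo1* peak had a score of 20 and was centred 12.9 kb before the start of *Rspo1*. The peak with the highest score, 190, was centred 15.3 kb before *Axin1* but 93 bases from the start of *Mrpl28*, and the *Gsk3a* peak was likewise closer to another gene, *Zfp526*. In all, 5 of the 16 peaks were nearer to the coding start of another gene.

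**Figure D5:**
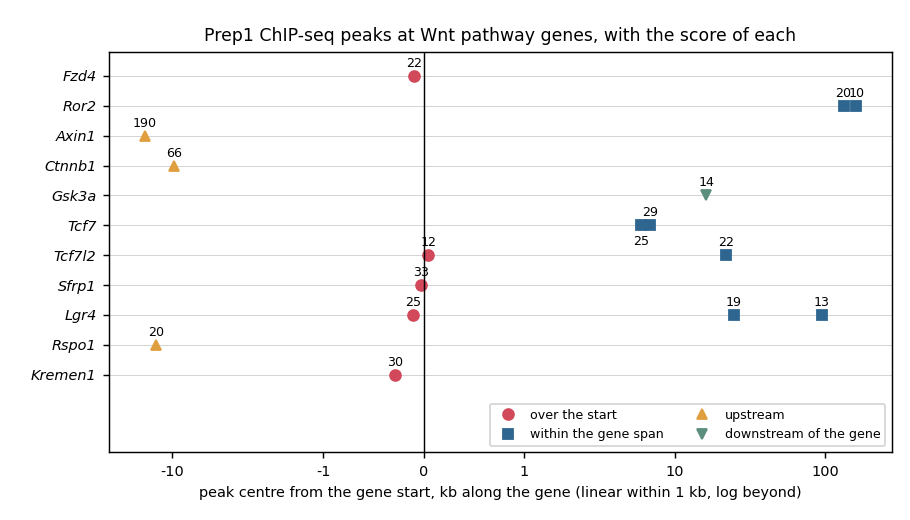
Distance of each Prep1 ChIP-seq peak's centre from the start of its Wnt pathway gene, in kb along the gene (linear within 1 kb and logarithmic beyond), with the score printed at each symbol and the location given by its shape and colour. Of the 16 peaks, 5 lie over a start, and the highest score is 190, upstream of *Axin1*.

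The genes called lower had no assigned peak. Of the 9, 0 had a peak by this rule, against 31.6% of the 1789 genes called lower and placed on mm9, and 1 (*Kremen2*) had one when the distance was extended to 50 kb (44.8% of those genes). Of the 4 called higher, 2 (*Sfrp1* and *Tcf7l2*) had a peak by the 20 kb rule, against 18.7% of the 894 genes called higher and placed. Each of the 2 had a peak over the start, against 5.26% of those 894 genes. Over the start, 0 of the 9 genes called lower had a peak, against 12.6% of the 1789. The numbers of genes are small, the ChIP and the RNA came from different ES lines, and which gene a peak acts on was not tested.

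The study describes a decamer as the binding motif of Prep1. It was searched here on both strands as TGANTGNCAG, with N for any base, which is looser at the seventh letter than the form in the study and allows no difference at the fixed letters, so the shares below depend on this choice. This form was found in 35.3% of all peaks and in 6 of the 16 peaks assigned to these genes. The study, by its own motif search, reported the decamer in a larger share of all peaks. The 6 sites are shown because they are the places under the peaks where the full motif occurs. They are printed along the strand of the gene, from mm9, with the decamer or its reverse complement in capitals. The windows are chr19:55816359-55816388 and chr19:55838095-55838144 for *Tcf7l2*, chr9:120828584-120828633 for *Ctnnb1*, chr2:109782570-109782619 for *Lgr4* (all plus strand), chr11:5161761-5161810 for *Kremen1* and chr13:53249155-53249204 for *Ror2* (both minus strand).
Tcf7l2, start: ctttttctatCTGTCAATCAgcgccgcctt
Tcf7l2, intron: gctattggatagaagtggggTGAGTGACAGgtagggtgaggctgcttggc
Ctnnb1, upstream: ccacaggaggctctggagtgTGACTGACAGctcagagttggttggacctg
Lgr4, intron: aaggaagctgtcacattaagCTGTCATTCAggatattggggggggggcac
Kremen1, upstream: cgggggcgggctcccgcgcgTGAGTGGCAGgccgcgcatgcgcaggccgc
Ror2, intron: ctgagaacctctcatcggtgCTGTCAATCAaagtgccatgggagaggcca

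The site at the *Tcf7l2* start was centred near position 73 from it, in the 5′ untranslated part of the first exon. The *Kremen1* site was centred near position -224 from the start and the *Ctnnb1* site near position -9726, both outside exons. The other 3 sites were intronic. Of the 6 sites, 3 read as the decamer along the gene and 3 as its reverse complement.

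The *Sfrp1* peak held no full decamer, and the 200 bases before its start (chr8:24521774-24521973, plus strand, mm9) are shown because they lie under a peak at a gene called higher. Capitals mark the stretch, at position -51 from the start, that differs from the decamer in at most 1 of its 8 fixed letters.
Sfrp1: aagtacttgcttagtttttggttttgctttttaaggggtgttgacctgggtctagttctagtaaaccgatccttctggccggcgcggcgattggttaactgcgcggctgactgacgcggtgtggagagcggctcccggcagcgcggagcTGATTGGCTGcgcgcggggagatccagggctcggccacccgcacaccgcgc

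With up to 1 difference the motif was found in 82.6% of all peaks and in 12 of the 16 peaks of these genes. It was also found in 18.2% of the 200-base windows before the starts of 22367 protein-coding genes. The peaks had a median length of 680 bases, and a longer stretch has more places for a match. The share in peaks and the share in windows are therefore not like for like.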

How the data were processed

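Members, lists and tests were chosen with earlier results of these data known. The authors assigned paired-end 50 bp mRNA reads to Ensembl release 63 genes with RSEM and used DESeq (versions not given in the sources used here), and deposited both read counts, as whole numbers, and RPKM values for the genes. The RPKM ratio divided by the ratio of read counts plus 1 was 1.12 throughout, so the deposited RPKM values rest on the count plus 1. RPKM was listed as Inf for 85 genes, which were left out. For ChIP-seq the authors mapped 36 bp reads with BWA on mm9, called peaks with MACS against input DNA, and deposited a whole-number score per peak. The input library itself was not analysed here.

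KO/WT ratios are RPKM ratios without pseudocount. The thresholds of 0.7 and 1.5 and the level of 1 RPKM are the study's, but the level was applied here to the WT library for lower calls and to the KO library for higher calls, whereas the study set it once, on transcripts detected in wild type cells. Read counts gave the exact 95% intervals, multiplied by 1.12. Reads are not independent molecules, so intervals cover counting error only, and genes with fewer than 20 reads in all were given no ratio. No count test was run, since each genotype has 1 library. Every gene above 1 RPKM or past a call was named, the others by their reads. Of the further pathway genes, those past a call were named. Positions and sequences come from mm9 (NCBIM37) with GENCODE M1, in which 21446 of the 22718 genes were found. Alternatives were other scalings, pseudocounts, RPKM filters, thresholds and peak distances, and, chosen after seeing the data, other sets of members. The calls and intervals were tested on simulated data that held counting error alone. Variation between lines or libraries was not simulated, so the simulation says nothing of it. Python 3.11.15, numpy 2.4.6, pandas 2.3.3, scipy 1.17.1, pysam 0.24.0 and matplotlib 3.10.9 were used.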

Additional observations from a re-analysis of the deposited data

How the results depend on the processing

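No paired analysis was possible because each genotype has 1 library, and no replicate could be left out. With a ratio below 0.5 or above 2, 2 of the genes were called lower (*Axin2* and *Sp5*) and 1 higher (*Notum*), by construction fewer than with 0.7 and 1.5. Over all genes these thresholds called 454 lower and 484 higher, beside 1899 and 985 with 0.7 and 1.5. The number called lower was 6 to 10 and the number called higher 3 to 6 under the other scalings, pseudocounts and filters, under symmetric thresholds, with read or interval minimums, and, chosen after seeing the data, with *Tcf7l1* and *Wls* included or without genes on chromosomes 8 and X. Over all genes the same alternatives called 1207 to 2451 lower and 621 to 1290 higher. The median log2 ratio was between -0.11 and -0.01 under its alternatives, beside -0.07. With peaks within 5 kb of the start only, 5 genes had a peak, against 11, since fewer peaks are in reach. These 5 were 9.43% of the 53 genes, against 10.9% of all genes placed on mm9. The number was 15 with 50 kb (28.3%, against 32.6%) and 8 with the higher-scoring peaks (15.1%, against 12.2%). Over 5 alternatives for each of the 44 genes above 1 RPKM, 198 of 220 ratios lay inside the counting interval and 22 lay outside it. None of the called ratios changed its direction, but this was fixed in advance. The changes of scale were too small to move a called ratio across 1, and a pseudocount cannot do so. Under 20 reads a gene's ratio cannot be read at this depth.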
